A study of Mus musculus with 2 samples.

Results

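Among 13045 cells of a pooled culture of mouse aortic vascular smooth muscle cells (VSMCs), 391 cells (the top 3%) carried the highest combined level of Lmo7, Slpi, Dio2, Cyp7b1, Myct1 and Il1rl1. A barcode was taken as a cell at 2218 or more gene UMIs (unique molecular identifiers, each counting 1 captured RNA molecule) and 200 or more genes. The members were selected on the measured values of these 6 genes: each gene's UMIs per 10000 were put on a natural log scale after adding 1, the 6 values were summed, and the top 3% of cells were taken. The levels of the 6 genes in the members are therefore a description of the choice, and every other gene was read from the same cells, so no test was applied to any contrast between members and other cells.

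The pool held 4 cultures of primary aortic VSMCs from C57BL/6 mice, bought as isolated cells, joined in 1 droplet library. They were young cells (from mice of 12 weeks), old cells (58 to 78 weeks), young cells given angiotensin II (100 nM, 48 h) and old cells transfected with siRNA against Piezo1 (20 nM in the labels and methods, with another concentration elsewhere in the study's text). Each culture was marked with 1 of 4 antibody hashtags before mixing, and no file pairs a hashtag with a culture, so hashtags are named by number; a scheme of the study lists the cultures in the order given here without calling these hashtag numbers. The cells held 115033686 gene UMIs, 3420164 of them in the members, and with 1 library and 1 culture per condition every interval given is a 95% interval that covers counting error only.

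VSMCs in the vessel wall are contractile cells that carry smooth muscle actin and its partners. In culture they lose much of that programme and take on matrix-making, secretory and inflammatory activity, and they do so unevenly from cell to cell. The 6 genes that chose the members have separate known roles. Il1rl1 encodes ST2, the receptor for the alarmin IL-33, which signals through MyD88 and NF-κB. Dio2 encodes the deiodinase that converts thyroxine into the active thyroid hormone inside the cell, and Cyp7b1 encodes a hydroxylase that clears oxysterols. Slpi encodes a secreted inhibitor of neutrophil proteases, Lmo7 a LIM domain protein of adherens junctions and the nuclear envelope, and Myct1 is a target gene of Myc.

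The 6 genes lie on 6 different chromosomes (GENCODE vM21, GRCm38, matched by Ensembl identifier). Il1rl1 spans chr1:40429570-40465415 on the plus strand, Slpi chr2:164354070-164389095 on the minus strand and Cyp7b1 chr3:18071950-18243338 on the minus strand. Myct1 spans chr10:5593775-5606904 on the plus strand, Dio2 chr12:90724552-90738438 on the minus strand and Lmo7 chr14:101729957-101934710 on the plus strand. RefSeq promoter windows on GRCm38.p6, from 250 bases before to 50 bases after a start, were matched for 5 of the 6 genes, in 7 windows; a RefSeq start need not be the end of the GENCODE span. Each was searched on both strands for TGACGTCA (the cAMP response element), TGACTCA (the AP-1 site) and TATAAA (the TATA box), none of which overlapped another. Of 32851 windows of this length, 1.79% hold TGACGTCA, 5.20% TGACTCA and 13.6% TATAAA, and among the 7 windows only those of Dio2 and Myct1 hold any of them. The Dio2 window (chr12:90738989-90739288, minus strand) is shown because Dio2 had one of the largest ratios of the 6 genes and because its window holds both TGACGTCA, beginning 95 bases before the start, and TATAAA, beginning 30 bases before it. The Myct1 window (chr10:5593478-5593777, plus strand) holds TATAAA beginning 33 bases before the start. Both are printed 5′ to 3′ with the matched letters in capitals.
Dio2: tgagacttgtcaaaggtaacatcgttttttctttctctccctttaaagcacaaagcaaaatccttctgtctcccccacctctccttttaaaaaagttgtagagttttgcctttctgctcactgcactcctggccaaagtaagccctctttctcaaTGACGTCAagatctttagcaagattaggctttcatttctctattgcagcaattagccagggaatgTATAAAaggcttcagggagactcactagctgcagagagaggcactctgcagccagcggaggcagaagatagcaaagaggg
Myct1: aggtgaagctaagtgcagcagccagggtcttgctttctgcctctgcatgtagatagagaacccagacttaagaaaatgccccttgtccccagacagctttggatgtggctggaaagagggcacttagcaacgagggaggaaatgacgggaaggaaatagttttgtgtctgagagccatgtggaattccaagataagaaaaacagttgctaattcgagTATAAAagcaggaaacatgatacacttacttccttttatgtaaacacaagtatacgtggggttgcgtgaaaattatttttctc

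Il1rl1 has 2 RefSeq starts on the plus strand, an upstream one (window chr1:40429320-40429619) and a downstream one (window chr1:40439379-40439678). They are shown because Il1rl1 contributed most UMIs to the choice, because transcripts for the membrane-bound and the secreted receptor are known from this gene, and because the deposited counts give only 1 value for the gene. Neither window holds any of the searched letters, which says nothing about the factors that bind there.
Il1rl1 upstream: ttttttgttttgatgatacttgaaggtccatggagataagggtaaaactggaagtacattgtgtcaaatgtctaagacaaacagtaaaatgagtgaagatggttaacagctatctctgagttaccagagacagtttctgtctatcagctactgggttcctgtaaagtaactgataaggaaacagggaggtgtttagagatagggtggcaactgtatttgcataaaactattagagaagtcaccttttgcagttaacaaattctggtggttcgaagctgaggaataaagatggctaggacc
Il1rl1 downstream: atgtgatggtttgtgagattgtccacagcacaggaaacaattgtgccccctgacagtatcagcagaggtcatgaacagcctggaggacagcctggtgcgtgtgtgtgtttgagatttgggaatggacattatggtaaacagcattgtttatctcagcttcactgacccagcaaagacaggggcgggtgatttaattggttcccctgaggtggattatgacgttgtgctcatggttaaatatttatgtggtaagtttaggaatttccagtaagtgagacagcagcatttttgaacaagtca

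Il1rl1 (ENSMUSG00000026069) was the most abundant of the 6 genes in the members. Its level, as summed UMIs per 1000000 UMIs (CPM), was 1631 (1589 to 1675) in the members and 236 (233 to 239) in all other cells, and 387 of 391 members had at least 1 UMI against 43.3% of other cells. Slpi (ENSMUSG00000017002) was at 493 CPM (470 to 517) in members and 49.3 (48.0 to 50.7) in other cells. Dio2 (ENSMUSG00000007682) was at 286 CPM (269 to 305) against 29.0 (28.0 to 30.04). These ratios, 9.99 for Slpi and 9.86 for Dio2, were the largest of the 6, yet 121 members had no Slpi UMI and 94 had no Dio2 UMI. Lmo7 (ENSMUSG00000033060) was at 324 CPM (305 to 344) against 40.6 (39.5 to 41.8), and 88.5% of members had a UMI. Cyp7b1 (ENSMUSG00000039519) was at 138 CPM (126 to 151) against 23.8 (22.9 to 24.7), and Myct1 (ENSMUSG00000046916) at 99.1 (88.8 to 110) against 18.2 (17.5 to 19.1). About as many members had a UMI of these last genes as had none, with 206 of 391 positive for Cyp7b1 and 188 for Myct1.

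**Figure D1:**
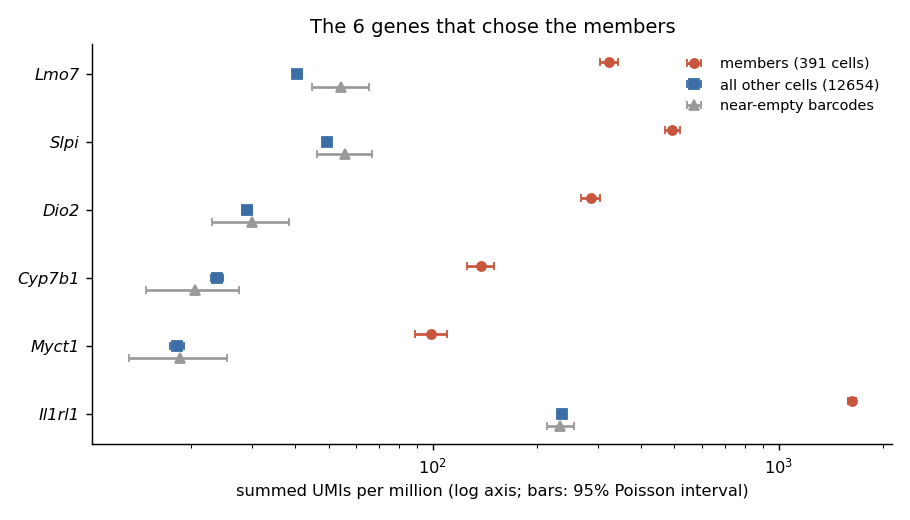
Levels of the 6 genes on a log axis of CPM, in the 391 members (circles), all 12654 other cells (squares) and near-empty barcodes (triangles), with 95% Poisson intervals as bars. The members sit above both other groups for each gene because they were selected on these values, and other cells sit close to the near-empty barcodes.

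RNA free in the suspension also gave UMIs of these genes. Barcodes with at most 100 UMIs, taken to hold no cell, summed to 234 CPM (214 to 255) of Il1rl1, 55.8 (46.2 to 66.9) of Slpi, 54.4 (44.9 to 65.3) of Lmo7 and 30.1 (23.1 to 38.5) of Dio2. The mean level of other cells was thus close to that of the near-empty barcodes for Il1rl1, Dio2, Cyp7b1 and Myct1 and below it for Lmo7. Among hashtag 1 cells with Y-linked transcripts and no Xist (median 7144 UMIs), 19.6% had an Il1rl1 UMI, 4.85% an Lmo7 UMI and 1.48% a Myct1 UMI. After each cell was thinned to 5000 UMIs, which left 350 members and 10262 other cells and dropped 41 and 2392, 98.3% of members and 38.4% of other cells had an Il1rl1 UMI, and 62.9% and 11.4% had a Slpi UMI.

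The members formed the upper end of a continuous score and had no gap below them. The median score was 7.16 in members and 0.97 in other cells, the highest member was at 11.2, and 4727 cells (36.2%) scored 0. At the cutoff the last member scored 6.1490 and the first cell left out 6.1488, with 65 members and 75 other cells within 0.25 of the cutoff. Most members owed their place to several genes at once: 30 members had UMIs of all 6 genes, 136 of 5, 162 of 4, 60 of 3 and 3 of 2. A high level of 1 gene did not by itself place a cell among the members. The other cell richest in Slpi had 85 UMIs of it, more than the 61 of the richest member, and 321 other cells exceeded the median Slpi level of Slpi-positive members while having a median of 2 of the 6 genes detected. The members, with 2.97% of all gene UMIs, held 23.4% of the Slpi UMIs, 23.2% of Dio2, 19.6% of Lmo7, 17.5% of Il1rl1, 15.1% of Cyp7b1 and 14.3% of Myct1, so most transcripts of each gene lay in cells below the cutoff.

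Hashtag counts and sex-linked transcripts were not used by the rule. Piezo1, the gene targeted by siRNA in 1 culture, was at 71.8 CPM (68.4 to 75.3) in hashtag 1 cells, 88.8 (81.7 to 96.4) in hashtag 2, 109 (103 to 114) in hashtag 3 and 86.5 (82.0 to 91.2) in hashtag 4. The interval of hashtag 1 lay below those of the others and that of hashtag 3 above them, while those of hashtags 2 and 4 overlapped. No hashtag stood far below the others for Piezo1, so the targeted gene does not identify a culture.

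The members gathered in hashtag 4. Of 1512 cells with hashtag 4, 204 were members (13.5%, 11.8 to 15.3). The share was 0.385% (0.199 to 0.672) in hashtag 1 with 12 of 3117 cells, 2.27% (1.21 to 3.85) in hashtag 2 with 13 of 573, and 0.409% (0.150 to 0.887) in hashtag 3 with 6 of 1468. Of the 235 members with 1 hashtag, 86.8% (81.8 to 90.9) carried hashtag 4, which marked 22.7% of all cells with 1 hashtag. A further 33 members were among the 1068 cells with several hashtags and 123 among the 5307 with none. Hashtag separation was narrow: hashtag 4 had a median of 74 UMIs in hashtag 4 members and 25 in members without a hashtag. Of the 123 members without a hashtag, hashtag 3 was the highest in 74 and hashtag 4 in 36 (29.3%, 21.4 to 38.1). Of the 5184 other cells without one, hashtag 3 was the highest in 3645 and hashtag 4 in 699 (13.5%, 12.6 to 14.4).

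Members also differed in Xist, the transcript that coats the inactive X chromosome of female cells. Of 4333 cells with Xist and no Y-linked UMI, 310 were members (7.15%, 6.40 to 7.96). Of 4565 cells with Y-linked UMIs and no Xist, 16 were (0.350%, 0.200 to 0.569). The remaining members were 40 of 1108 cells with both kinds of transcript and 25 of 3039 with neither. Within hashtag 4 the share was 17.6% (15.3 to 20.1) among the 1011 cells with Xist only and 1.44% (0.297 to 4.14) among the 209 with Y-linked transcripts only. Among hashtag 2 cells with Xist only, 9 of 345 were members (2.61%, 1.20 to 4.89). Hashtag 4 cells with Xist only (178 members) and cells without a hashtag with Xist only (100 members of 2478) together held 71.1% of the members. Hashtag and transcript class thus moved with membership, and since each culture was made once, culture, cell source and treatment cannot be told apart.

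**Figure D2:**
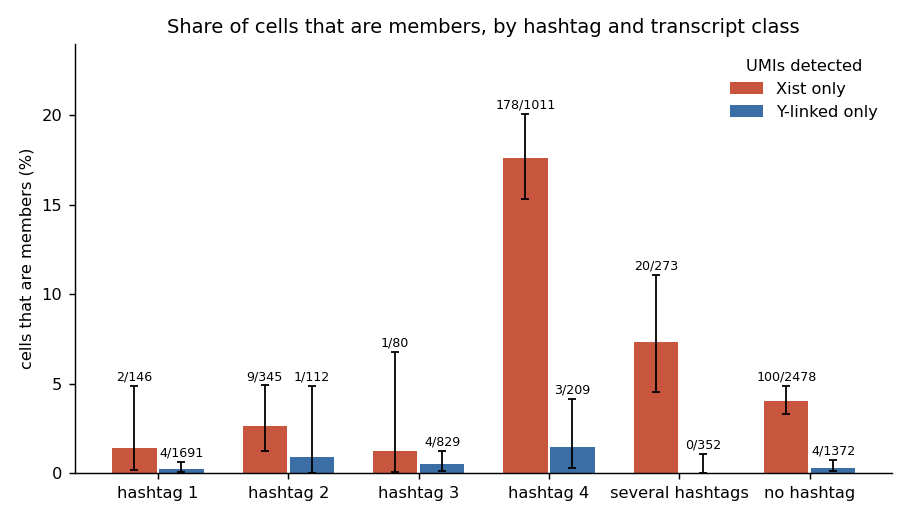
Share of cells that are members (%, bars from 0) for each hashtag class, split into cells with Xist only and cells with Y-linked transcripts only, with exact binomial 95% intervals and members over cells above each bar. The highest bar is hashtag 4 with Xist only (178 of 1011), and the highest Y-linked bar is that of hashtag 4 (3 of 209).

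Each of the 6 genes was highest in hashtag 4 among the 4 hashtags, and the order of the others varied. Il1rl1 was at 97.0 CPM in hashtag 1, 237 in hashtag 2, 163 in hashtag 3 and 541 in hashtag 4. Slpi was at 32.6, 88.0, 49.2 and 118 CPM in hashtags 1 to 4, and Dio2 at 19.8, 44.9, 12.4 and 78.7. Lmo7 was at 17.9, 46.8, 12.4 and 103 CPM. Hashtag 2 was second for these 4 genes, while for Cyp7b1 hashtags 1 and 2 were alike at 24.9 and 23.6 CPM beside 55.8 in hashtag 4. Because of these levels, members were compared with other cells of the same kind, in hashtag 4 cells with Xist only and in cells without a hashtag with Xist only. In hashtag 4 cells with Xist only, the ratio of members to other cells was smaller than in the whole pool but stayed above 2 for each gene: 5.48 for Dio2, 4.64 for Slpi, 3.86 for Cyp7b1, 3.70 for Lmo7, 3.48 for Il1rl1 and 2.56 for Myct1.

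How the genes vary together was read by leaving each out of the score in turn, so that the gene itself did not choose the cells. Among hashtag 4 cells with Xist only, the 178 cells highest in the other 5 genes held 2.72 times the Dio2 level of the rest (2.37 to 3.10). The same value was 2.30 (2.04 to 2.59) for Lmo7, 2.10 (1.76 to 2.50) for Cyp7b1 and 2.06 (1.95 to 2.17) for Il1rl1. Slpi and Myct1 had the lowest values in this class, at 1.67 (1.48 to 1.89) and 1.59 (1.30 to 1.93). Over all cells of the pool the lowest value was that of Cyp7b1, at 3.13 (2.75 to 3.54). Across the 1011 hashtag 4 cells with Xist only, correlations of log levels between pairs of the 6 genes, which share each cell's depth, ranged from 0.014 for Slpi with Cyp7b1 to 0.394 for Lmo7 with Il1rl1 (Pearson's r). Il1rl1 was at 0.300 with Dio2 but at 0.103 with Cyp7b1. All 15 values were above 0, most of them weak, and they describe cells of 1 library.

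When the 6 genes were left out of the data, the members still lay near each other. In 30 principal components of 2000 variable genes, 32.2% of the 20 nearest neighbours of a member were members, while members made up 3% of cells. Among hashtag 4 cells with Xist only, the figure was 43.8% where members made up 17.6%, against 16.4% for the neighbours of other cells. The members did not form a closed group: 27.9% of them had members as at least 50% of their neighbours, and 35 had none.

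Several genes outside the score differed in steps along it. Hashtag 4 cells with Xist only were split into those at score 0 (104 cells), above 0 to 2 (186), 2 to 4 (272), 4 to the cutoff (271) and members (178). Fst, which encodes the activin antagonist follistatin, was at 235 CPM (206 to 268) at score 0, then 493, 1023 and 1481, and 1749 (1685 to 1816) in members. Mmp3, the matrix protease stromelysin, went from 285 (252 to 320) at score 0 to 2036 (1966 to 2108) in members. Other genes took the opposite course. Tagln, an actin-binding protein of smooth muscle, was at 1031 CPM (969 to 1096) at score 0, then 685, 335 and 237, and 71.6 (59.0 to 86.1) in members. Acta2, smooth muscle actin, went from 428 (388 to 470) to 30.4 (22.4 to 40.4). Cryab, a small heat shock protein, went from 1379 (1307 to 1454) to 105 (89.3 to 122). For Fst, Mmp3, Tagln, Acta2 and Cryab the level moved in 1 direction across all 5 bins, below the cutoff as well as at it. Spp1 (osteopontin) had no such course, with 9035 CPM at score 0 and 8389 in members.

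**Figure D3:**
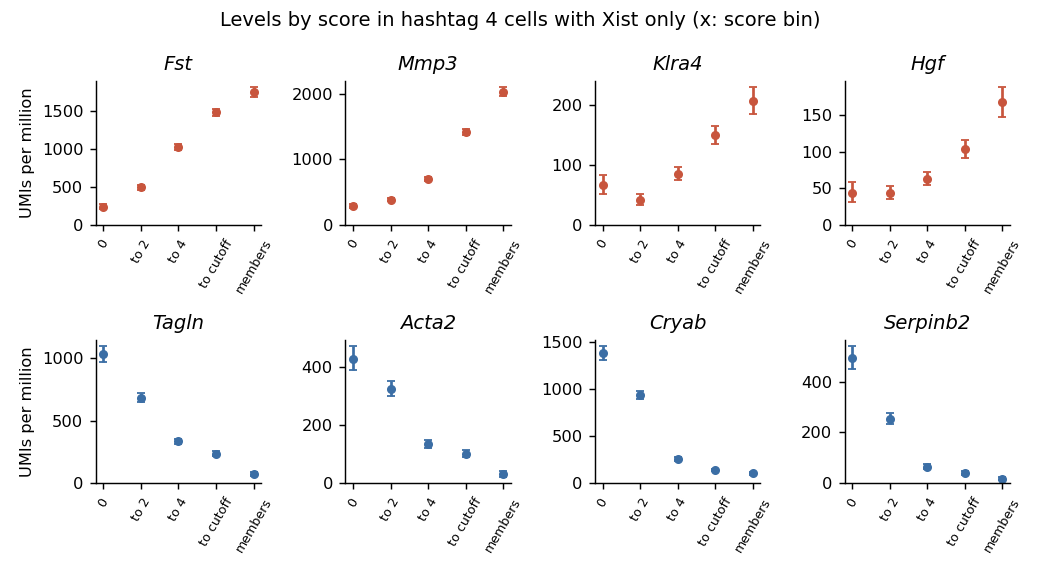
CPM (y, from 0) of 8 genes across 5 score bins (x) of hashtag 4 cells with Xist only, with 95% Poisson intervals. Fst and Mmp3 climb from bin to bin up to the members, Hgf and Klra4 climb from the second bin on, and Tagln, Acta2, Cryab and Serpinb2 decline to their lowest level in the members.

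Of 8853 genes at 10 CPM or more in members or in other cells, 187 (2.11%) were at least 2-fold higher in members and 378 (4.27%) at least 2-fold lower. Within hashtag 4, 94 of 8823 genes were higher (1.07%) and 238 lower (2.7%). In hashtag 4 cells with Xist only, 88 of 8869 genes were higher (0.992%) and 212 lower (2.39%), and in cells without a hashtag with Xist only, 165 of 8887 were higher (1.86%) and 308 lower (3.47%). Between these last comparisons, which share no cells, 29 genes were higher in both and 96 lower in both. Each count of higher genes, the 29 included, takes in the 6 score genes, which were selected to be high. The background shift was small, with a median log2 ratio of all measured genes of 0.04 in the pool and 0.02 in hashtag 4 cells with Xist only.

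Named genes had to reach 50 CPM in members or in other cells of the pool. Among the 16 with the highest ratios, only Fst, Mmp3, Ralgapa2 and Nrg1 reached it in both groups. The rest of the 16, Hgf included, reached it in members alone, which favours a high ratio. Reaching it in other cells alone favours a low ratio. Hgf, hepatocyte growth factor, had the highest ratio among the 16 named genes. It was at 164 CPM in members and 34.2 in other cells (ratio 4.79, 4.37 to 5.23). Within hashtag 4 cells with Xist only its ratio was 2.44 (2.10 to 2.82), and within cells without a hashtag with Xist only it was 3.26 (2.73 to 3.87). Fst was at 1641 against 409 CPM in the pool (ratio 4.01), and its ratios within the same 2 classes were 1.83 and 2.73. Mmp3, at 2048 against 550 CPM, had ratios of 3.72 in the pool, 2.53 in hashtag 4 cells with Xist only and 3.15 in those without a hashtag. Hgf and Mmp3 were past 2-fold in each of these 3 comparisons, while Fst was not in hashtag 4 cells with Xist only. The genes were ranked in the pool, which holds the members of both classes, so these comparisons are not separate.

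Nrg1, the growth factor neuregulin, had ratios of 3.36 in the pool, 2.22 in hashtag 4 cells with Xist only and 2.06 in those without a hashtag. Stc1, the hormone stanniocalcin, had 3.41, 1.84 and 2.35, and Bmp2, a bone morphogenetic protein, 3.37, 1.57 and 2.67. Ramp3, an accessory protein of the adrenomedullin receptor, had 3.82, 1.65 and 2.25. Kcnk10, a potassium leak channel, Ndst3, a heparan sulphate sulphotransferase, and Peg10, an imprinted gene, were above 1 in the 3 comparisons with ratios from 1.73 to 3.43. Ralgapa2, a GTPase-activating protein for Ral, was at 205 against 58.1 CPM and had ratios of 3.53, 2.22 and 2.86.

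Klra4, a lectin-like receptor known from natural killer cells, was at 158 CPM in members and 37.3 in other cells (ratio 4.25), with 2.23 in hashtag 4 cells with Xist only and 3.85 in those without a hashtag. Klra4 belongs to a family of near-identical genes, so its counts are uncertain as to the member. The non-coding RNAs Platr16 and Tbx3os1 had ratios of 4.34 and 3.69 in the pool and 1.96 and 1.88 in hashtag 4 cells with Xist only. Tbx3os1 lies antisense to Tbx3, and the sources used here do not give the strand setting of the counting.

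For Il11 and S100a8, single cells held a large part of the UMIs. Il11, a cytokine of the IL-6 family, had 200 UMIs in the members, 91 of them in 1 cell, and only 37 of 391 members had any. Its ratio was 3.63 in the pool, 0.65 (0.42 to 0.96) in hashtag 4 cells with Xist only and 0.79 (0.34 to 1.59) in those without a hashtag. S100a8, a calcium-binding alarmin of myeloid cells, had 105 of its 463 UMIs in 1 member. For the other 14 genes, no member held more than 4.16% of the members' UMIs.

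**Figure D4:**
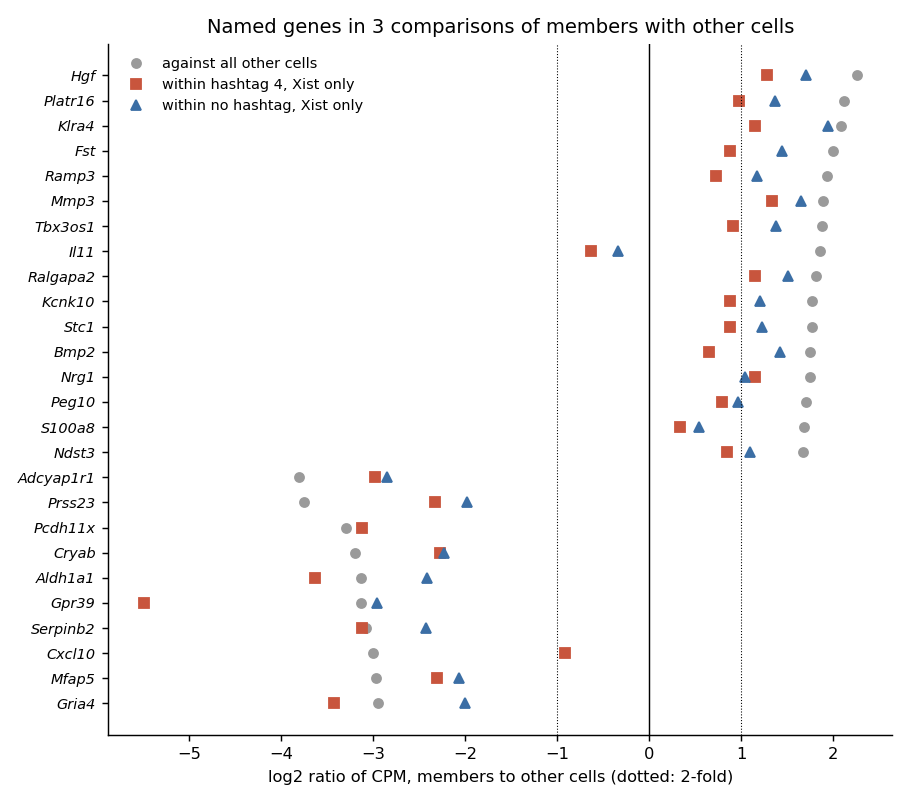
Log2 ratio of CPM of members to other cells for the 26 named genes outside the score, in the whole pool (circles), within hashtag 4 cells with Xist only (squares) and within cells without a hashtag with Xist only (triangles), with dotted lines at 2-fold; Pcdh11x and Cxcl10 have no triangle because no UMI was counted in those members. Of the 16 genes with the highest ratios in the pool, 15 lie right of 0 in the 3 comparisons and Il11 does not, and the 10 with the lowest ratios lie left of 0 wherever they have a value. The genes were ranked on the pool ratio. The classes hold 178 and 100 of the same members, so these sides follow in part from that ranking.

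A gene that overlaps Dio2 was also higher in members. Gm26512, a non-coding RNA on the plus strand (chr12:90738201-90869235), overlaps the 5′ end of Dio2 by 238 bases on the opposite strand. It was at 64.3 CPM in members and 9.36 in other cells (ratio 6.87, 5.91 to 7.95), and 38.4% and 6.51% of cells had a UMI. Its ratio was 3.80 within hashtag 4 cells with Xist only and 5.55 within those without a hashtag. Gm26512 was singled out after its value was seen, for its position, and with the strand setting not known, its reads and those of Dio2 cannot be fully told apart in the shared bases.

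Within hashtag 4 cells with Xist only, Ccl5, C1qtnf7 and Grin2a had higher ratios than the genes named so far outside the score and Gm26512; these and Col3a1 were chosen after their values were seen. Ccl5, a chemokine, had a ratio of 5.33, but 75 of its 84 UMIs came from 1 member. C1qtnf7, a secreted relative of complement C1q, was at 63.4 against 21.9 CPM (ratio 2.89, 2.25 to 3.70) and was found in 42 of 178 members. Grin2a, a glutamate receptor subunit, was at 55.8 against 19.5 CPM (ratio 2.86, 2.18 to 3.72) in 50 of 178. The type III collagen gene Col3a1 was at 167 against 75.8 CPM there (ratio 2.20, 1.90 to 2.54) and had a ratio of 2.18 (1.82 to 2.59) in cells without a hashtag with Xist only, but 1.20 in the pool.

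The 10 named genes with the lowest ratios were lower in members than in other cells in each class with a value. They were chosen by their ratio in the pool, which holds the members of both classes. Cryab was at 237 CPM in members and 2170 in other cells (ratio 0.11, 0.10 to 0.12), and the ratio was 0.21 in both classes with Xist only. Serpinb2, an intracellular inhibitor of plasminogen activators, was at 60.8 against 516 CPM (0.12), with 0.11 and 0.19 within the classes. Prss23, a secreted serine protease, was at 20.2 against 272 CPM (0.07), with 0.20 and 0.25. Mfap5, a microfibril protein, was at 45.3 against 356 CPM (0.13), with 0.20 and 0.24. These 4 genes rested on 69 to 811 UMIs in all members, and the intervals of their ratios lay below 1 in the 3 comparisons. The classes rested on fewer UMIs in members. They were 16 to 165 in hashtag 4 cells with Xist only and 9 to 78 in those without a hashtag. Prss23 and Mfap5 reached the 50 CPM for named genes in the other cells alone, which favours a low ratio.

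The other 6 rested on few counts in members. They reached the 50 CPM for named genes in the other cells alone, which favours a low ratio. Adcyap1r1, the receptor for the peptide PACAP, had 13 UMIs in all members (3.80 against 53.4 CPM, ratio 0.07). Aldh1a1, which makes retinoic acid, and Gpr39, a zinc-sensing receptor, had 35 each (10.2 against 89.8 and 89.6 CPM), and Pcdh11x, a protocadherin, had 28 (8.19 against 80.2). Gria4, a glutamate receptor subunit, was at 12.9 against 99.4 CPM. Cxcl10, a chemokine induced by interferon, was at 7.89 against 63.2 CPM in the pool and at 3.80 against 7.15 in hashtag 4 cells with Xist only, where the interval of the ratio (0.19 to 1.22) includes 1.

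Acta2 and Tagln, which stayed above the measuring level in both groups, were lower in members. Of 11 measured contractile genes (of 16 listed), none was 2-fold higher in members and 6 were 2-fold lower, with a median log2 ratio of -1.02 against 0.04 over all genes measured. Among all genes measured in the pool, 2.11% were higher and 4.27% lower. Acta2 was at 62.9 against 348 CPM (ratio 0.18), Tagln at 124 against 623 (0.20), Myl9 at 15.2 against 57.9 (0.26) and Cnn1 at 4.39 against 18.1 (0.24). Cnn1 and Lmod1 (6.14 against 15.1) were measured through the other cells alone, which favours a lower call, and Lmod1 turned to a ratio of 1.26 in hashtag 4 cells with Xist only. Within hashtag 4 and Xist only, 4 of 10 were 2-fold lower (median -0.54) and none higher, again Acta2 (ratio 0.15), Tagln (0.15), Myl9 (0.20) and Cnn1 (0.14, 0.03 to 0.42). Of these, Myl9 (7.61 against 38.3 CPM, 12 UMIs in members) and Cnn1 (1.90 against 13.6, 3 UMIs) were measured there through the other cells alone. Among all genes measured in that class, 0.992% were higher and 2.39% lower. In the pool, tropomyosin Tpm1, the most abundant of the list, was alike in both groups at 1614 and 1557 CPM. Myh11, the defining myosin of contractile VSMCs, was near 0 in the whole culture, at 1.46 CPM in members (5 UMIs) and 4.50 in other cells.

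Few genes of the pathways in which the 6 genes act were past 2-fold. Of all genes measured in the pool, 2.11% were higher and 4.27% lower, so such counts do not set these lists apart. On the IL-33 receptor list none of 8 measured genes was past 2-fold in the pool (median 0.06) or in hashtag 4 cells with Xist only. Il1rap, the co-receptor of ST2, was at 118 against 78.9 CPM, and within hashtag 4 cells with Xist only at 108 against 99.7. The ligand Il33 was at 9.36 CPM in members (32 UMIs) and 6.34 in other cells, below the measured level, with a ratio of 0.87 in hashtag 4 cells with Xist only and 3.17 (1.63 to 5.65) in those without a hashtag, where it was the 1 gene of 9 past 2-fold. Nfkb1 was at 170 against 125. Of the thyroid hormone list, 0 of 5 measured genes were past 2-fold (median 0.23). The receptor Thra was at 48.8 against 37.4 CPM and the hormone-responsive Klf9 at 82.7 against 110, while no Dio1 UMI was counted in members or in other cells. Of the oxysterol and cholesterol list, 1 of 10 was lower and none higher (median 0.07). The lower gene was Ch25h, which makes 25-hydroxycholesterol (12.0 against 35.6 CPM). In hashtag 4 cells with Xist only, the cholesterol exporter Abca1 was lower too (22.8 against 49.2, ratio 0.46, 0.32 to 0.65), and in those without a hashtag none of 10 was past 2-fold. In the pool, the synthesis gene Hmgcs1 was at 52.6 CPM against 53.7.

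Several other protease inhibitors were lower in members. For comparison, 2.11% of all genes measured in the pool were at least 2-fold higher and 4.27% lower. Of 15 measured genes of that list, which leaves out Slpi, none was 2-fold higher and 6 were 2-fold lower (median -0.50), among them Timp1, an inhibitor of metalloproteinases (1446 against 3356 CPM), Timp3 (63.7 against 159) and Serpinb2. Among hashtag 4 cells with Xist only 3 of 15 were lower (median -0.28), Serpinb2, Timp3 (30.4 against 74.9) and Tfpi2 (1.90 against 17.3). Tfpi2 was measured there through the other cells alone, which favours a lower call. Among all genes measured in that class, 2.39% were lower. Timp1 was at 1343 against 1869 there. Serpine2, an inhibitor of thrombin and plasminogen activators, was at 330 against 182 CPM in the pool (ratio 1.81, 1.70 to 1.92) and at 314 against 281 in hashtag 4 with Xist only. Serpina3g was at 86.5 against 53.5 (1.62, 1.43 to 1.82) and at 93.8 against 99.3 there. The adherens junction and LIM list, which leaves out Lmo7, had 3 of 18 lower and none higher (median -0.18). They were N-cadherin Cdh2 (184 against 427), the LIM protein Pdlim1 (18.7 against 83.9) and Nectin1 (9.06 against 23.2). Nectin1 was measured through the other cells alone, which favours a lower call.

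The inflammatory and secretory list was split. Of 19 measured genes, 5 were 2-fold higher in members and 2 lower (median 0.08). Among all genes measured in the pool, 2.11% were higher and 4.27% lower. The higher ones on the list were Hgf, Mmp3, Mmp10 (543 against 228 CPM), Lcn2, the iron-binding lipocalin of the acute phase (2101 against 771), and Csf3, the granulocyte colony-stimulating factor (96.5 against 31.6). The lower ones included the neutrophil chemokine Cxcl5 (182 against 615). Among hashtag 4 cells with Xist only Hgf and Mmp3 were past 2-fold higher, and the acute-phase gene Saa3 was lower (402 against 1088). Il6 was alike at 96.8 and 101 CPM, and Ccl2, the most abundant of the list, was at 3824 against 3305.

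The interferon list differed between the pool and the single class. All 15 measured genes were 2-fold lower in members than in the pool's other cells (median -2.46), such as Isg15 (42.1 against 277 CPM), Ifit1 (35.4 against 233) and Bst2 (189 against 653). Among all genes measured in the pool, 4.27% were lower. A gene at 10 CPM in the other cells alone also counted as measured, which favours a lower call. In hashtag 4 cells with Xist only, 7 genes were measured and 1 was 2-fold lower (median -0.48). There Isg15 was at 12.7 against 27.1 CPM, Ifit1 at 17.8 against 21.8 and Bst2 at 151 against 211. The summed list was at 415 CPM in members and 1841 in the pool's other cells, but at 260 in members and 351 in other cells of hashtag 4 with Xist only, so the level in the pool moved with hashtag and transcript class.

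**Figure D5:**
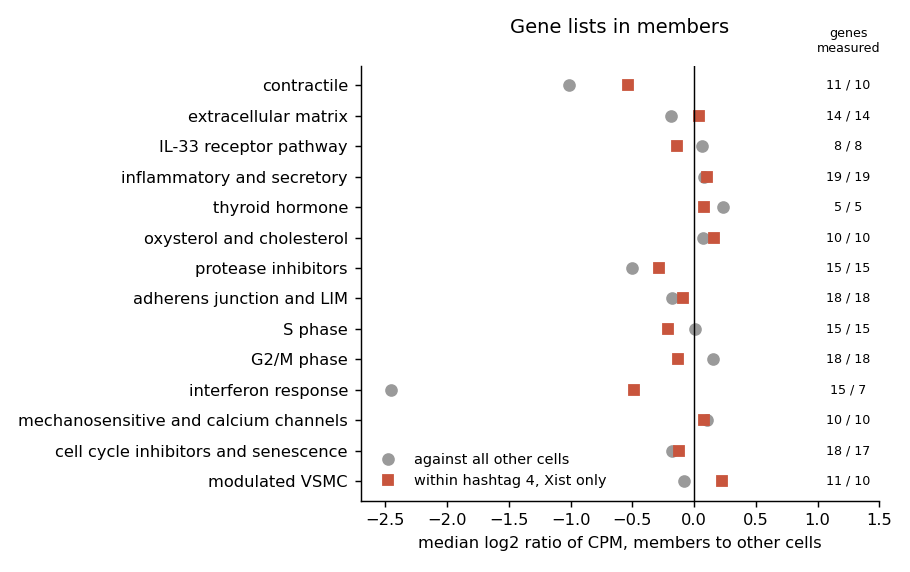
Median log2 ratio of CPM of members to other cells for 14 gene lists, in the whole pool (circles) and within hashtag 4 cells with Xist only (squares), with the number of genes measured in each at the right. The interferon list lies at -2.46 in the pool and -0.48 in the class, the contractile list lies left of 0 in both, and the S phase list lies at 0.01 and -0.21 and the G2/M list at 0.16 and -0.13.

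The counts of cell cycle genes past 2-fold were near the share of all genes measured in the pool (2.11% higher, 4.27% lower). None of 15 S phase genes and none of 18 G2/M genes was past 2-fold, with medians of 0.01 and 0.16. After thinning to 5000 UMIs the median member had 2 S phase and 1 G2/M UMIs, against 2 and 2 in other cells. Top2a was at 211 against 164 CPM in the pool and at 219 against 231 in hashtag 4 cells with Xist only. Of 18 measured genes of the senescence and cell cycle inhibitor list, 2 were higher and 3 lower in the pool (median -0.18), and none of 17 was past 2-fold in hashtag 4 cells with Xist only, while 2 of 16 were higher in those without a hashtag. Cdkn1a, which encodes p21, was at 599 against 665 CPM and Cdkn2a, which encodes p16, at 246 against 284. The 2 higher genes were Igfbp4 (61.7 against 20.9) and Igfbp5 (34.8 against 8.67), with ratios of 2.46 and 2.17 in the class without a hashtag. Igfbp5 was measured in the pool through the members alone, which favours a higher call. Only 9 of 391 members had an Igfbp5 UMI, 59 of the 119 UMIs were in 1 member, and the ratio turned to 0.0620 when Slpi was left out of the score.

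Extracellular matrix genes had 1 lower member of 14 measured (median -0.19), where 2.11% of all genes measured in the pool were higher and 4.27% lower. It was the collagen crosslinker Lox, at 84.5 against 620 CPM in the pool and 59.6 against 150 in hashtag 4 cells with Xist only. Mgp, the matrix Gla protein that inhibits calcification, was at 1392 against 1684 CPM. Of 11 measured genes of modulated VSMCs, Bmp2 was higher, and Ly6a (140 against 612) and Sox9 (21.1 against 53.9) were lower (median -0.08), but Ly6a was at 117 against 89.1 in hashtag 4 cells with Xist only. Of 10 measured mechanosensitive and calcium channel genes, Trpc6 was higher (13.5 against 6.43 CPM, 46 UMIs) and Stim1 (24.3 against 52.7) and Piezo2 (14.9 against 29.9) were lower (median 0.10), and none of the 10 was past 2-fold in either class with Xist only. Trpc6 was measured in the pool through the members alone, which favours a higher call. Piezo1 was at 90.1 CPM in members and 85.9 in other cells. In hashtag 4 members it was at 88.0 (75.0 to 103), beside 86.5 in all hashtag 4 cells.

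ST2 is also known from mast cells and type 2 innate lymphoid cells, and SLPI from epithelia, so markers of other cell types were read in the members. Of 12 mast cell and lymphoid genes, 8 had no UMI in members, among them Cpa3, Mcpt4, Il7r and Il13, and the listed sum (82.5 CPM in members, 124 in others) was mostly Rora (62.9 against 91.8). Of 15 epithelial and mesothelial genes, 7 had no UMI, among them Epcam, Cdh1 and Krt5, and the sum was 16.1 against 66.6 CPM with Sbsn (6.72 against 30.7) the most abundant. Of 12 macrophage genes, Ptprc, Adgre1, C1qa and 3 others had none, and the sum was 49.4 against 20.0 CPM, of which the endotoxin co-receptor Cd14 gave 39.5 against 10.7. Cd14, the 1 measured gene of that list, was past 2-fold higher in the 3 comparisons, with ratios of 3.69 in the pool, 2.33 in hashtag 4 cells with Xist only and 2.11 in those without a hashtag, and its part in the result was not tested. Of 12 endothelial genes, Tie1, Cldn5, Esam and Erg had none. Pecam1 was at 4.97 CPM (17 UMIs) against 1.88, and Flt1 was lower (2.92 against 33.8), while the sum was 23.1 against 49.3. Flt1 was measured through the other cells alone, which favours a lower call. A count of 0 was taken as up to 3 UMIs in the members, or 0.877 CPM, and its exact Poisson upper limit is 1.08 CPM. The share of all genes without a UMI in the members is not given here. Counts of genes at 0, here and in the lists that follow, therefore do not set a list apart. Among all genes measured in the pool, 2.11% were at least 2-fold higher and 4.27% lower.

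Fibroblast, pericyte, Schwann and adipocyte markers were mixed, where 2.11% of all genes measured in the pool were higher and 4.27% lower. Of 7 measured fibroblast genes, Pdgfra (100.3 against 48.0 CPM) and Cd34 (26.0 against 7.70) were higher and Dpt (5.85 against 12.0) lower, the most abundant was Dcn (480 against 539) and the sum was 809 against 876. Cd34 was measured through the members alone, which favours a higher call, and Dpt through the other cells alone, which favours a lower one. None of 6 was past 2-fold in hashtag 4 cells with Xist only, where Pdgfra was at 101 against 57.9 and Cd34 at 30.4 against 16.9. In cells without a hashtag with Xist only 2 of 6 were higher, Pdgfra (ratio 2.17) and Cd34 (2.60), and Fbln1 was lower (0.39). Dpt turned to a ratio of 2.59 as a median of ratios within hashtags, which left out hashtags where members or other cells had no Dpt UMI. Pi16 had no UMI. Pericyte genes summed to 71.9 against 70.1 CPM, mostly Pdgfrb (51.5 against 50.5), with 3 of 9 at 0. Of the Schwann and neuronal genes S100b was higher (19.9 against 6.58, a ratio of 1.99 in hashtag 4 cells with Xist only) and Ncam1 lower (59.1 against 280), the sum was 88.6 against 304, and Sox10 and Nefl had no UMI. Of the adipocyte genes 5 of 8 had no UMI, Lpl was lower (2.05 against 13.5), and Fabp4 made most of the sum (201 against 212 of 205 against 231). In the pool, S100b was measured through the members alone and Lpl through the other cells alone, which favours these calls. The members are therefore called by their 6 genes, with no cell type name.

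Members had about the depth of other cells and fewer doublet calls. Their median was 8453 UMIs against 7891 in other cells, and 8582 against 9951 within hashtag 4 cells with Xist only. The median number of genes at 5000 UMIs was 2206.5 in members and 2171.5 in other cells. Doublets called by Scrublet made up 12.0% (8.97 to 15.7) of members and 23.8% (23.1 to 24.5) of other cells, and cells with several hashtags 8.44% and 8.18%. Mitochondrial UMIs were higher in members, with a median of 2.20% against 1.30% in the pool and 2.31% against 1.82% within hashtag 4 cells with Xist only. The part of mitochondrial content in the result was not tested.

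Overlap with 3 other sets of 391 cells, each the top 3% of all cells by the same formula, was uneven. The set high in Clu, Csf3, Hgf and 3 further secretory genes shared 37 cells, which is 9.46% of each set (6.75 to 12.8) where that set held 3% of all cells, and 20 of these were hashtag 4 cells with Xist only. Among those cells, 11.2% of members and 9.36% of other cells belonged to that set. The set high in Ccn5, Masp1 and Lurap1l shared 4 cells, although Masp1 alone was higher in members (63.4 against 21.9 CPM). The contractile set shared 0 of 391. With a count of 0 taken as up to 3 cells this allows a share of 0.767%, and the exact upper limit is 0.939%.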

How the data were processed

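The deposited matrix holds raw UMI counts that the authors made with Cell Ranger and examined with Seurat; the sources used here do not name their genome build. It holds 32285 genes and 4 hashtags for 2472397 barcodes, with 138733332 gene UMIs and 12779836 hashtag UMIs. The cell minimum of 2218 UMIs is 10-fold below the 99th percentile among the 10000 barcodes with most UMIs. Hashtags were assigned with HTODemux (Seurat 5.3.0, quantile 0.99) and doublets called, but not removed, with Scrublet (scanpy 1.11.5). UMIs were summed over cells and given as CPM with exact Poisson intervals, ratios with exact binomial and shares with Clopper-Pearson intervals (scipy 1.17.1). A gene was measured at 10 CPM in either group and counted past a fold of 2. Named genes were the 16 highest and 10 lowest ratios at 50 CPM or more in either group, without mitochondrial, ribosomal and unnamed gene models. From each list, those past the fold and the most abundant were also named. The scripts were tested on simulated data. Members, lists and rules were chosen with earlier results of these data known, and the comparisons within cells with Xist only were added after the data were seen. With 1 library there is no replicate and no test. Scrublet called 3011 of 12654 other cells and 47 of 391 members. Some genes of the lists are counted but not reported here by name.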

Additional observations from a re-analysis of the deposited data

How the results depend on the processing

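Of 75 alternative values for the shares, counts of genes and neighbours, 56 stayed within counting error (counts within 1.5-fold) and 19 moved. The share of hashtag 4 cells that were members (13.5%) was 5.22% and 19.0% when the top 1% and 5% of cells were taken, 10.1% without the log and 17.7% when a hashtag was taken at 3 times the next. The share of members with 1 hashtag that carried hashtag 4 (86.8%) was 95.2% and 80.6% for the top 1% and 5%, 91.5% without doublet calls and cells with several hashtags, 81.1% without Il1rl1 in the score and 77.0% at 3 times the next hashtag. The 187 higher and 378 lower genes became 1653 and 1304 with no minimum CPM, 87 and 126 at 50 CPM, 94 and 238 within hashtag 4, and 88 and 212 within hashtag 4 cells with Xist only, and the higher genes became 323 for the top 1%. The members' neighbours (32.2%) were 43.8% within hashtag 4 cells with Xist only.

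Of 1435 alternative ratios of 85 genes, 17 crossed 1, in 13 genes. Igfbp5 was at 0.0620 without Slpi in the score. As a median over hashtags, Lmod1 was at 1.02, Oasl1 at 1.40, Gdf15 at 1.07 and Dpt at 2.59. That median left out hashtags where members or other cells had no UMI of the gene, which favours a higher value for a gene scarce in members. Hashtags 1, 2 and 3 held only 12, 13 and 6 members. In hashtag 4 cells with Xist only, Il11 was at 0.65, Lmod1 at 1.26, Ifi44 at 1.31, Ifih1 at 1.44 and Ly6a at 1.31. In cells without a hashtag with Xist only, Il11 was at 0.79, Ifit3b at 1.71, Oasl1 at 1.38, Slfn5 at 1.02, Usp18 at 1.69, Rsad2 at 1.19 and Ifi44 at 1.72. The causes were not tested. No paired analysis was possible because the series holds 1 pooled library without replicates.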

Other observations

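A few transcripts were held by single members. Of the 187 genes at least 2-fold higher in the pool, 3 had 25% or more of the members' UMIs in 1 cell, and of the 165 higher in cells without a hashtag with Xist only, 26 did. Ccl5, which was higher among hashtag 4 members through 1 cell, was lower in the pool (52.6 against 193 CPM).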
